A study of Homo sapiens with 3 samples.

Results

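Genes for nucleolar ribosome biogenesis were examined across 3 RNA sequencing libraries of Hep3B, an established human cell line of hepatocellular carcinoma. The set was a list of 40 gene symbols. Of these, 39 matched an entry of the deposited table by Ensembl identifier, out of 19869 entries in all, and BOP1 was not analysed here. The 39 passed a mean of at least 1 FPKM (fragments per kilobase of transcript, scaled to library size), as did 10974 genes of the whole table. The first library came from cells transfected with the plasmid pcDNA3.1-HKR3, which encodes HKR3, an older name of the telomere-binding zinc finger protein ZBTB48. The second was labelled as transfected with siTERT, a small interfering RNA against TERT, the catalytic subunit of telomerase. The third was the control, titled NT-Empty, whose treatment label names only the transfection reagent Fugene. The labels do not say what nucleic acid, if any, the control cells received, or how long after transfection cells were harvested. All cells were Hep3B grown in the same medium, and each group was 1 library, so every difference below is between single libraries and has no replicate check. Fewer cells of a kind and less RNA per cell cannot be told apart in such bulk samples.

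Ribosomes are built in the nucleolus. RNA polymerase I transcribes the long precursor of the ribosomal RNAs, small nucleolar ribonucleoproteins modify it, and the small subunit processome and a series of large subunit factors fold and cleave it while ribosomal proteins join. In proliferating tumour cells, liver cancer included, this machinery is strongly expressed, and the MYC transcription factors are known regulators of many of its genes.

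As a check of the labels, ZBTB48 was at 2842 FPKM in the HKR3 library, 4.89 FPKM in the library labelled siTERT and 4.91 FPKM in the control. TERT was at 4.25 FPKM, 5.37 FPKM and 4.69 FPKM in the same order. The second library thus showed no lower TERT, and directions in it belong to its label. The 11 hepatoma markers were all measured, with AFP at 2831, 3855 and 4055 FPKM in that order. In the HKR3 library 9 of the 11 were below the control, where 48.6% of all genes lay above it. The marker median was a log2 difference of -0.52, with a range from -1.03 for APOA1 to 1.07 for FOXA2. FGB was also above the control, at 0.59. In the library labelled siTERT the marker median was 0.05. The part of this shift in the values below was not tested. Of 14 markers of blood, endothelial, stromal, muscle and nerve cells, 13 were in the table, 6 of them were listed at 0 in every library, and the highest reached 0.803 FPKM. The sources used here give no fragment counts. Low FPKM values, which step by what 1 fragment is worth, gave estimates of 1.13e+07 fragments for the HKR3 library, 1.15e+07 for the library labelled siTERT and 1.04e+07 for the control. Intervals below are exact 95% binomial limits on such estimated fragments, cover counting error only, and apply to the plain FPKM ratio.

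The promoters of the extremes of the list are shown because these genes bound its range in the HKR3 library. NOB1 and NIP7 were the highest against the control, and FBL and NOP16 the lowest. Each line is the 250 bases before the annotated start, 5′ to 3′ on the gene's strand, from RefSeq on GRCh38.p14. FBL lies on the minus strand at chr19:39846380-39846629, NOP16 on the minus strand at chr5:176388599-176388848, NOB1 on the minus strand at chr16:69754927-69755176 and NIP7 on the plus strand at chr16:69339522-69339771. Capitals mark matches, on either strand, to the MYC E-box CACGTG, to TTAGGG, the telomere repeat unit that ZBTB48 is known to bind, and to CCGGAAG, an ETS-type motif.
NOB1: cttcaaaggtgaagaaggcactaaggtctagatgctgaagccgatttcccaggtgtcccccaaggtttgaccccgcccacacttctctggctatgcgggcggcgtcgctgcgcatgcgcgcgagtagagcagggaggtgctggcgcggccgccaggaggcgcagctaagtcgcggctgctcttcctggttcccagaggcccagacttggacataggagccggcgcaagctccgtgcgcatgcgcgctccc
NIP7: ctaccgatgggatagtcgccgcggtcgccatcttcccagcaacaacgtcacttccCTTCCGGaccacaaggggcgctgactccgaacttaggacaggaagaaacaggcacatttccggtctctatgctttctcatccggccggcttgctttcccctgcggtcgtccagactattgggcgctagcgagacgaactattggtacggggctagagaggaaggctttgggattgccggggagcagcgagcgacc
FBL: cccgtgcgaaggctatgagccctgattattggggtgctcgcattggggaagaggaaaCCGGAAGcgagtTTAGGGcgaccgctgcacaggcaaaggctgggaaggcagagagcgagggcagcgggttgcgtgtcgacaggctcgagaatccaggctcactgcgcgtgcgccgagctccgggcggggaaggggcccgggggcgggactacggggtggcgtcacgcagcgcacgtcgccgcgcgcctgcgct
NOP16: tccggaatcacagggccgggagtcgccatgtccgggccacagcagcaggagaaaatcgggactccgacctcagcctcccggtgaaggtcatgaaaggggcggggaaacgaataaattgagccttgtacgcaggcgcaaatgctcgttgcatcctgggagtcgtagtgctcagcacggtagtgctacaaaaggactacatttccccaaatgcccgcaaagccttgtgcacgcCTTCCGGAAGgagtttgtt
NOB1 held no match, NIP7 held CTTCCGG, the reverse complement of CCGGAAG, FBL held CCGGAAG and TTAGGG, and NOP16 held CTTCCGGAAG, in which CCGGAAG overlaps its reverse complement. Promoters were at hand for 34 of the 39 genes. CCGGAAG was found in 13 of these, or 38.2%, against 20.4% of 8980 expressed genes with a promoter. CACGTG was found in 5, those of DDX21, LYAR, UTP18, UTP20 and UTP4, or 14.7% against 11.7%. TTAGGG was found in 1, that of FBL, or 2.94% against 10.5%. The median log2 difference between the HKR3 library and the control was 0.09 for the genes with CACGTG and -0.08 for those without, and -0.10 with CCGGAAG and -0.03 without. These matches describe letters in a window and are no record of binding.

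The genes spanned a wide range of levels. NPM1, which encodes nucleophosmin, a chaperone of the granular part of the nucleolus, was the highest, at 726 FPKM in the HKR3 library, 838 FPKM in the library labelled siTERT and 868 FPKM in the control. NCL, nucleolin, was next at 336, 359 and 366 FPKM. At the low end, UTP20, a large scaffold of the small subunit processome, was at 10.1, 11.5 and 11.3 FPKM, and WDR12 was at 11.2, 9.84 and 11.5 FPKM. The 39 genes together held 0.589% of the FPKM sum in the HKR3 library, 0.56% in the library labelled siTERT and 0.555% in the control, so their share of the measured transcripts was close in all 3.

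**Figure D1:**
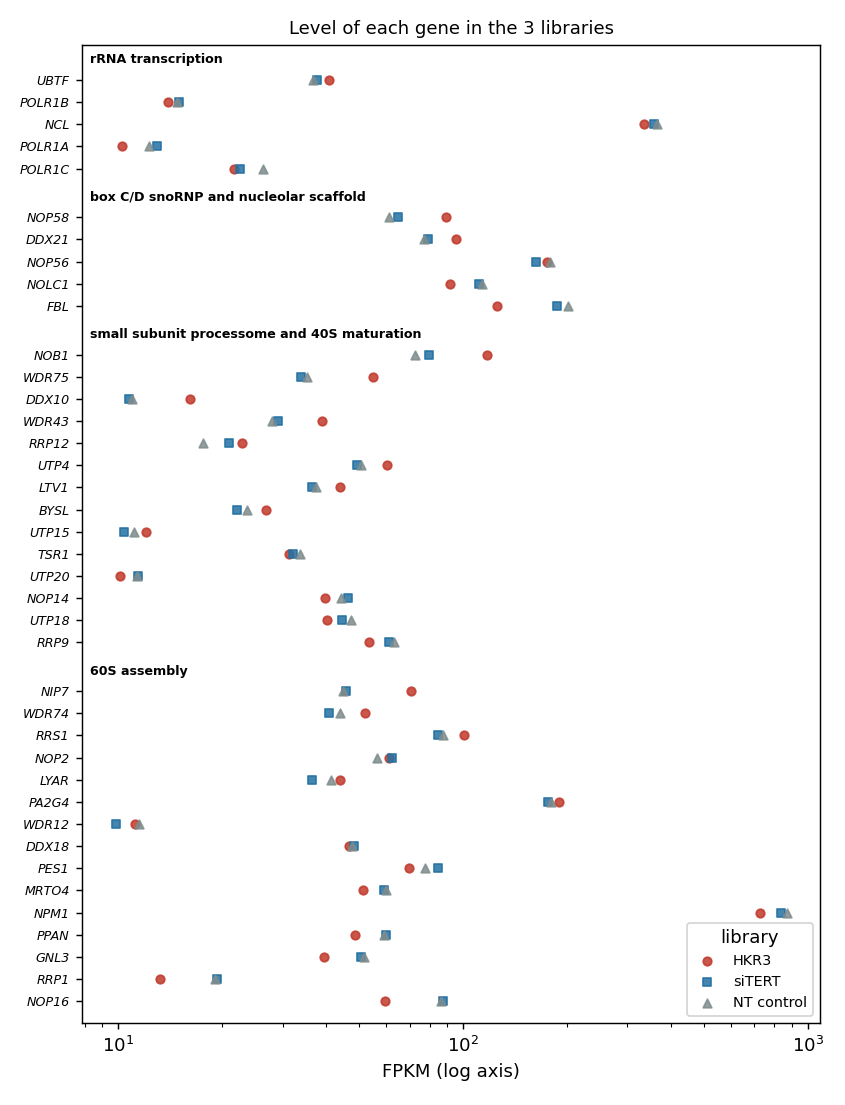
FPKM of the 39 genes (log axis) in the HKR3 library, the library labelled siTERT and the control, 1 point per library, grouped by role. NPM1 and NCL lie at the top of the range, while UTP20, WDR12 and POLR1A lie near 10 FPKM, and the points of the library labelled siTERT sit close to those of the control.

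The comparison of HKR3 overexpression with the control asked how the list as a whole and each step of ribosome assembly differed. The list did not move in one direction. Differences are given as the change in log2(FPKM + 1), HKR3 library minus control. None of the 39 genes was at least 2-fold higher, against 5.52% of all genes tested, and none was at least 2-fold lower, against 2.52%. With a lower size rule of 1.5-fold, NOB1, NIP7 and WDR75 were higher, 3 of 39 genes or 7.69% against 15.3% of all genes, and FBL was lower, 1 of 39 or 2.56% against 12.7%. Above 0 lay 18 genes, or 46.2%, against 48.6% of all genes. The median of the list was -0.03 and that of all genes -0.02, and the list ran from -0.67 for FBL to 0.69 for NOB1. Scaling every library to the same FPKM sum moved the median of all genes to 0.12 and that of the list to 0.12 as well.

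**Figure D2:**
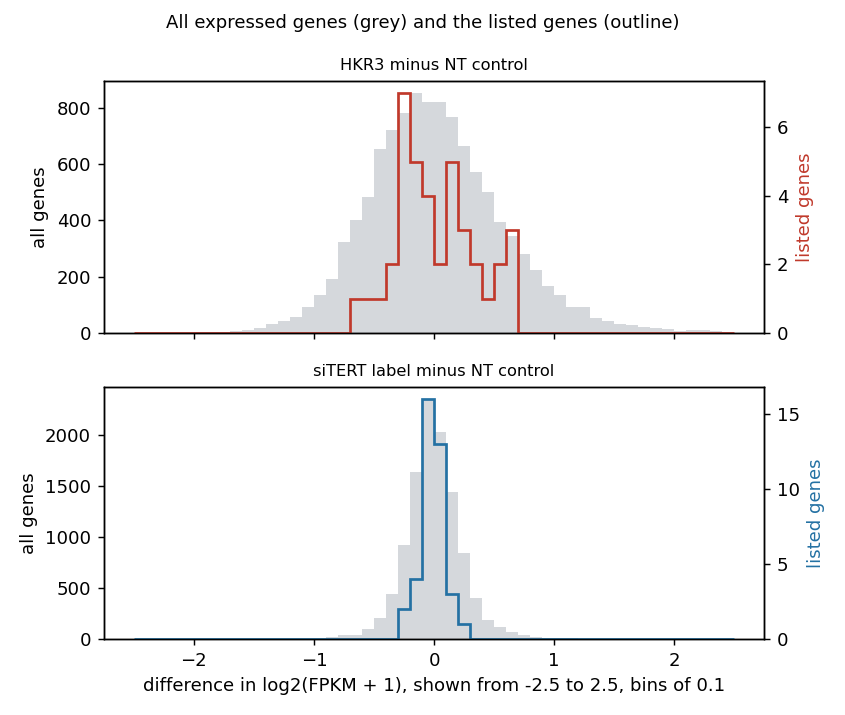
Number of genes by difference in log2(FPKM + 1) from the control, for all 10974 expressed genes (grey, left axis) and the 39 listed genes (outline, right axis), in the HKR3 library above and in the library labelled siTERT below. The listed genes lie within the body of all genes in both panels, between -0.67 and 0.69 in the upper one and between -0.22 and 0.23 in the lower one.

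Counting error was small beside the spread of the list in the HKR3 library. The interval of the FPKM ratio lay above 1 for 14 genes, below 1 for 16 and held 1 for 9. Intervals were made for the listed genes only, so no share of all genes can be set beside these counts. The quartiles of the difference were -0.23 and 0.23 for the list and -0.36 and 0.36 for all genes. Transcript length, level and GC content moved with the difference across all genes. The median difference was -0.18 for the 1952 genes with a transcript of 1 to 2 kb and 0.10 for the 4289 genes over 4 kb, and it was -0.28 for the 923 genes above 100 FPKM. Across the 39 genes the Spearman correlation of the difference was 0.18 with length, -0.12 with level and -0.34 with GC content, and across all genes it was 0.22, -0.18 and -0.28, values from the same libraries given as descriptions. Values with these trends removed are given beside the genes at the ends of the range.

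For transcription of ribosomal RNA, 1 of 5 genes lay above 0, where 48.6% of all genes did. UBTF, which encodes the architectural factor that keeps ribosomal DNA open, was at 41.0 FPKM in the HKR3 library, 37.7 FPKM in the library labelled siTERT and 36.7 FPKM in the control. The 3 polymerase subunits of the list were below the control in the HKR3 library as deposited. POLR1A, the largest catalytic subunit, was at 10.2 FPKM in the HKR3 library, 13.0 FPKM in the library labelled siTERT and 12.3 FPKM in the control, a ratio to the control of 0.834 with an interval from 0.755 to 0.922. POLR1B, the second catalytic subunit, was at 14.0, 15.04 and 14.8 FPKM in that order. Its interval held 1, and its difference of -0.08 turned to 0.07 after scaling to the same sum. POLR1C, a subunit shared with RNA polymerase III, was at 21.7 and 22.5 FPKM in the HKR3 and siTERT-labelled libraries, both below the 26.3 FPKM of the control. NCL, which acts in transcription and early processing, had a difference of -0.12 that turned to 0.03 after the same scaling. The group median was -0.12 where that of all genes was -0.02, 0.03 after the same scaling where that of all genes was 0.12, and -0.23 with the trends removed.

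Other polymerase I subunits with POLR1 names, named after their values were seen, went both ways in the HKR3 library. Their log2 differences from the control were 0.28 for POLR1D, 0.67 for POLR1F, 0.60 for POLR1H, -0.40 for POLR1E and -0.10 for POLR1G. Subunits with POLR2 names were all below the control as deposited. Their differences were -0.67 for POLR2E, -0.56 for POLR2F, -0.39 for POLR2H, -0.16 for POLR2K and -1.21 for POLR2L. Of the other 18 genes of the polymerase I system, all measured, the median in the HKR3 library was -0.02, as for all genes. Of these, 2 were at least 2-fold higher, against 5.52% of all genes, and 1 was at least 2-fold lower, against 2.52%. TAF1A and TAF1D, subunits of the promoter selectivity factor SL1, were the 2 higher genes. TAF1A was at 8.48 FPKM in the HKR3 library, 3.36 FPKM in the library labelled siTERT and 2.497 FPKM in the control. TAF1D was at 36.2, 13.8 and 13.0 FPKM in that order. POLR2L, a small subunit shared by the nuclear RNA polymerases, was the lower gene, at 83.3, 144 and 194 FPKM.

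The listed core proteins of the box C/D particle, which carries the guide RNAs for 2′-O-methylation, differed from each other in the HKR3 library. FBL, fibrillarin, is the methyltransferase of this particle, and NOP56 and NOP58 are its paralogous scaffold proteins. FBL was at 126 FPKM in the HKR3 library, 187 FPKM in the library labelled siTERT and 201 FPKM in the control. The HKR3 library was the low one, with a ratio to the control of 0.625 and an interval from 0.587 to 0.665. NOP58 was at 89.2, 64.9 and 61.2 FPKM in the same order. Here the HKR3 library was the high one, with a ratio of 1.46 and an interval from 1.36 to 1.56. NOP56 was at 175, 163 and 179 FPKM, and its difference of -0.03 in the HKR3 library turned to 0.12 after scaling to the same sum. FPKM of FBL over that of NOP58 was therefore 1.41 in the HKR3 library, 2.89 in the library labelled siTERT and 3.29 in the control, a ratio that no scaling of whole libraries changes. FBL has a transcript of 1160 bases and a mean level of 172 FPKM, both in ranges where all genes had a negative median, and its difference of -0.67 was -0.31 with the trends removed. NOP58 had 0.54 as deposited and 0.51 with the trends removed. SNU13, a further core protein outside the list, was named after its values were seen. It was at 133 FPKM in the HKR3 library, 184 FPKM in the library labelled siTERT and 172 FPKM in the control. Its difference in the HKR3 library was -0.37, in the direction of FBL.

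**Figure D3:**
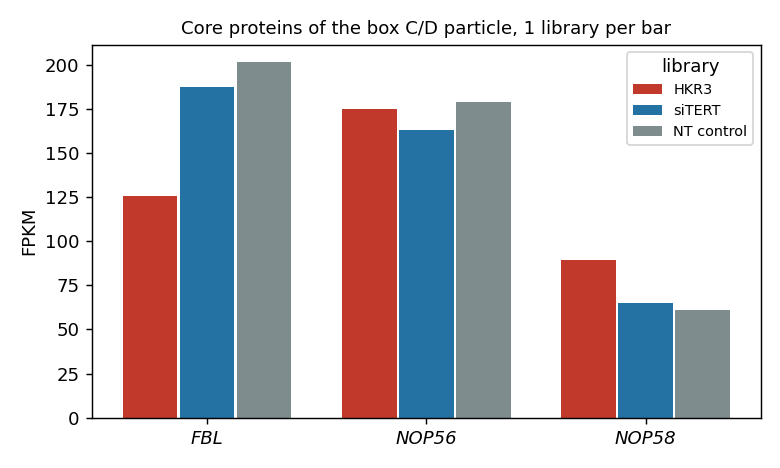
FPKM of FBL, NOP56 and NOP58 in the HKR3 library, the library labelled siTERT and the control, 1 library per bar and no error bars. The HKR3 library holds the lowest FBL bar, at 126 FPKM, and the highest NOP58 bar, at 89.2 FPKM.

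Of the other genes grouped with the particle, NOLC1, a chaperone that shuttles with small nucleolar ribonucleoproteins, was at 91.7 FPKM in the HKR3 library, 111 FPKM in the library labelled siTERT and 113 FPKM in the control. DDX21, an RNA helicase that acts in ribosomal RNA transcription and processing, was at 95.3, 79.3 and 76.9 FPKM. These went in opposite directions, with differences of -0.30 and 0.31 in the HKR3 library. Among 16 further snoRNP genes, all measured, the median in the HKR3 library was -0.08, which turned to 0.06 after scaling to the same sum. None was past 2-fold in either direction, against 5.52% of all genes higher and 2.52% lower. NHP2, a core protein of the H/ACA particle and of telomerase, was nearest, at 109.9 FPKM in the HKR3 library, 169 FPKM in the library labelled siTERT and 218 FPKM in the control.

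Of 14 small subunit genes, 9 lay above 0 in the HKR3 library, where 48.6% of all genes did, with a group median of 0.19, and no test was made of this group. After scaling to the same sum 11 of 14 were above 0, where 58.9% of all genes were. With the trends removed 9 of 14 were above 0, where 46.0% of all genes were, with a group median of 0.20. No member was past 2-fold. NOB1, the endonuclease that makes the mature 3′ end of 18S ribosomal RNA, was at 117 FPKM in the HKR3 library, 79.6 FPKM in the library labelled siTERT and 72.4 FPKM in the control. Its ratio in the HKR3 library was 1.62, with an interval from 1.51 to 1.73, and it stood at percentile 88.1 of all genes. With the trends removed its difference was 0.90 in place of 0.69.

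The next highest small subunit genes in the HKR3 library belonged to the processome. WDR75, a subunit of the UtpA complex that binds the nascent precursor RNA, was at 55.0 FPKM in the HKR3 library, 33.9 FPKM in the library labelled siTERT and 35.3 FPKM in the control, a ratio of 1.56 with a wide interval from 1.21 to 2.02. Its difference was 0.62 as deposited and 0.50 with the trends removed. WDR43, of the same complex, was at 39.0, 29.2 and 27.9 FPKM. UTP4, a further UtpA subunit, was at 60.3, 49.3 and 50.5 FPKM. UTP15, the fourth of this complex in the list, was at 12.1, 10.4 and 11.1 FPKM, with an interval that held 1 and a difference of 0.11 that turned to -0.15 with the trends removed. All 4 were above the control in the HKR3 library as deposited, and WDR75, WDR43 and UTP4 stayed above 0 under every alternative tried. DDX10, a helicase of the processome, was at 16.2, 10.8 and 11.0 FPKM, with a ratio of 1.47 and an interval from 1.29 to 1.68. Its difference was 0.52 as deposited and 0.28 with the trends removed.

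RRP12, which acts in export of the precursor subunits, and NOB1 were the 2 genes of the list with a counting interval above 1 in the HKR3 library and in that labelled siTERT. Both comparisons use the same single control library, so the 2 intervals of each gene are not independent. A low value in the control alone would raise both. RRP12 was at 22.8 FPKM in the HKR3 library, 20.9 FPKM in the library labelled siTERT and 17.6 FPKM in the control. LTV1 and BYSL, assembly factors of the precursor 40S particle, were at 43.9 and 26.8 FPKM in the HKR3 library and at 37.5 and 23.7 FPKM in the control. RRP9, a protein of the U3 particle, UTP18, of the UtpB complex, NOP14, UTP20 and TSR1 had differences from -0.24 to -0.10, and RRP9, NOP14 and TSR1 turned sign under at least 1 alternative. RRP9 was at 53.4 FPKM in the HKR3 library, 61.0 FPKM in the library labelled siTERT and 63.2 FPKM in the control.

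Of 48 other small subunit genes, 46 were measured. In the HKR3 library 1 was at least 2-fold higher, against 5.52% of all genes, and none at least 2-fold lower, against 2.52%. Above 0 lay 29, or 63.0% against 48.6% of all genes, with a median of 0.06 and no test made. The excess was not particular to HKR3. In the library labelled siTERT, set against the same control, 30 lay above 0, or 65.2% against 47.4% of all genes, with a median of 0.04. RIOK3, a RIO-family kinase linked to late 40S maturation, was the gene past 2-fold, at 26.8 FPKM in the HKR3 library, 9.85 FPKM in the library labelled siTERT and 7.11 FPKM in the control. RIOK1, of the same family, was at 17.5, 9.13 and 8.68 FPKM. Its plain FPKM ratio to the control was 2.02, but its log2(FPKM + 1) difference of 0.94 fell short of the size rule. UTP14A, a processome protein, was at 36.4, 23.5 and 20.0 FPKM.

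Large subunit genes went both ways, with 6 of 15 above 0 in the HKR3 library, where 48.6% of all genes were. Their group median was -0.03, which turned to 0.11 after scaling to the same sum. NIP7, a factor needed for ribosomal RNA processing and 60S assembly, was at 70.5 FPKM in the HKR3 library, 45.9 FPKM in the library labelled siTERT and 44.8 FPKM in the control. Its ratio in the HKR3 library was 1.58, with an interval from 1.41 to 1.76, and its difference was 0.64 as deposited and 0.62 with the trends removed. WDR74 and RRS1, which acts with the 5S particle, were next, at 52.1 and 101 FPKM in the HKR3 library and at 44.0 and 87.4 FPKM in the control.

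At the other end, NOP16, a nucleolar protein of the early 60S particle, was at 59.3 FPKM in the HKR3 library, 87.6 FPKM in the library labelled siTERT and 86.4 FPKM in the control. The HKR3 library stood apart from the other 2, with a ratio to the control of 0.686 and an interval from 0.592 to 0.796. RRP1, a further 60S factor, was at 13.3, 19.4 and 19.1 FPKM, with a ratio of 0.696. GNL3, nucleostemin, a GTPase of the nucleolus, was at 39.7, 50.8 and 51.8 FPKM, with a ratio of 0.766. With the trends removed, the differences were -0.30 for NOP16, -0.39 for RRP1 and -0.40 for GNL3, so these 3 stayed below 0. PES1 and WDR12, partners in the PeBoW complex of 28S maturation, had differences of -0.15 and -0.03, and neither was below 0 after scaling to the same sum. With the trends removed PES1 was at 0.06 and WDR12 at -0.28.

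The remaining large subunit genes lay between -0.27 and 0.11 in the HKR3 library. NPM1 was among the lower ones, with a ratio of 0.836, but 52.8% of its sequence in units of 31 bases is also found in other annotated genes, among them the pseudogene NPM1P27. PPAN shares 87.2% with the read-through gene PPAN-P2RY11, and NOP2, the 28S ribosomal RNA methyltransferase, shares 83.4% with another annotated gene, so the values of these 3 genes depend on how fragments were divided. Without them the median of the list in the HKR3 library kept its sign. DDX18, a helicase of 60S assembly, and PA2G4, which binds ribosomal RNA and precursor particles, were close to the control, at 46.6 and 190 FPKM in the HKR3 library against 47.7 and 180 FPKM in the control.

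**Figure D4:**
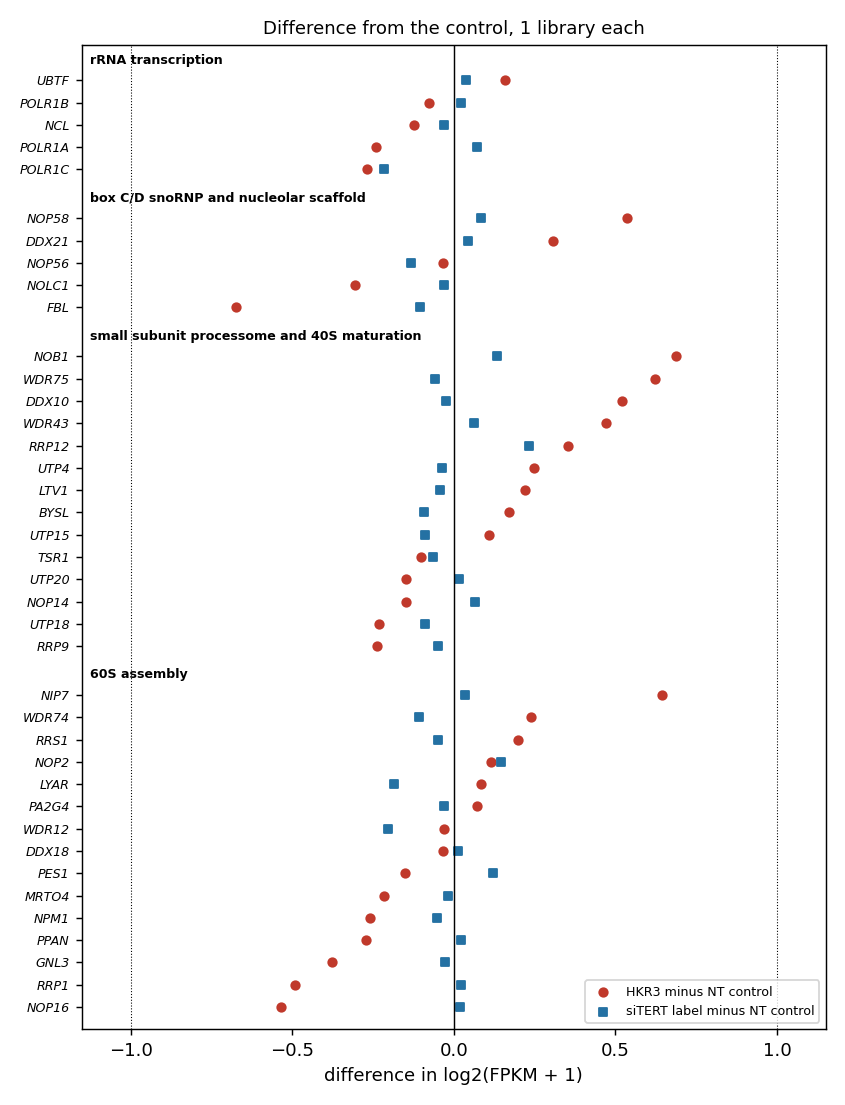
Difference in log2(FPKM + 1) from the control for each of the 39 genes, grouped by role and ordered by the HKR3 value, in the HKR3 library (circles) and in the library labelled siTERT (squares). Dotted lines mark 2-fold. The circles run from -0.67 for FBL to 0.69 for NOB1, whereas the squares stay between -0.22 and 0.23.

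Of 59 other large subunit genes, 57 were measured. In the HKR3 library 38 lay above 0, or 66.7% against 48.6% of all genes, with a median of 0.13 and no test made. At least 2-fold higher was 1, against 5.52% of all genes, and none was at least 2-fold lower, against 2.52%. NMD3, the export adaptor of the 60S particle, was the gene past 2-fold, at 45.3 FPKM in the HKR3 library, 22.04 FPKM in the library labelled siTERT and 19.9 FPKM in the control. URB2 was at 5.72, 9.95 and 11.6 FPKM. Its plain FPKM ratio to the control was 0.492, but its log2(FPKM + 1) difference of -0.91 fell short of the size rule. NVL, an AAA ATPase that acts on the precursor 60S particle, was at 13.3, 7.31 and 7.05 FPKM. Of 27 genes of the exosome and of end processing, all measured, 12 lay above 0 in the HKR3 library, where 48.6% of all genes did. Their median was -0.06, where that of all genes was -0.02. Only 1 of the 27 was past 2-fold, and it was lower, a change seen in 2.52% of all genes. None was higher by that much, against 5.52%. The lower gene was POP5, a subunit of RNases P and MRP. POP5 was at 30.05 FPKM in the HKR3 library, 41.1 FPKM in the library labelled siTERT and 64.2 FPKM in the control. After scaling to the same sum no gene of this list was past 2-fold.

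The second comparison, set up to show the effect of TERT knockdown, set the siTERT-labelled library against the control, with TERT at 5.37 and 4.69 FPKM in these. The list stayed close to the control. None of the 39 genes was at least 2-fold higher, against 0.282% of all genes, or at least 2-fold lower, against 0.2%. None was past 1.5-fold either, against 1.69% of all genes higher and 1.24% lower. Above 0 lay 17 genes, or 43.6%, against 47.4%, and the median was -0.03 against -0.01 for all genes. The ends of the range were RRP12, at 0.23, and POLR1C, at -0.22. The interval of the FPKM ratio held 1 for 31 genes, lay above 1 for 3, which were RRP12, NOB1 and PES1, and below 1 for 5, which were WDR12, LYAR, NOP56, FBL and NPM1. No share of all genes is at hand for these counts. WDR12 was at 9.84 FPKM in the library labelled siTERT and 11.5 FPKM in the control, a ratio of 0.857 with an interval from 0.782 to 0.939. LYAR, a nucleolar protein of cell growth, was at 36.4 and 41.5 FPKM in that order. Of the 16 further snoRNP genes, 3 lay above 0 in this library, where 47.4% of all genes did, with a median of -0.12. NOPCHAP1, a chaperone in assembly of the box C/D particle, was at 4.74 FPKM in the library labelled siTERT and 10.0 FPKM in the control, and at 6.66 FPKM in the HKR3 library.

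Set directly against the library labelled siTERT, the HKR3 library gave a like picture, although the comparison shares its libraries with those above. None of the 39 genes was past 2-fold, against 4.11% of all genes higher and 1.38% lower. NIP7 and WDR75 were at least 1.5-fold higher, 2 of 39 against 12.9%, and none was at least 1.5-fold lower, against 9.71%. Above 0 lay 19 genes against 49.4% of all genes. FBL was at -0.57, NOP16 at -0.56, NOB1 at 0.55 and WDR75 at 0.68.

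The MYC family, known regulators of these genes, differed within itself in the HKR3 library. MYC was at 73.4 FPKM in the HKR3 library, 62.0 FPKM in the library labelled siTERT and 57.4 FPKM in the control, while MYCN was at 12.1, 38.4 and 50.2 FPKM. MXD1, which encodes an antagonist that pairs with MAX, was at 30.7, 3.90 and 3.07 FPKM, and MXD3, of the same family, at 5.72, 18.5 and 18.0 FPKM. No link between these levels and those of the 39 genes was tested.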

How the data were processed

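RNA was sequenced from 3 Hep3B libraries, 1 per group, prepared with the TruSeq stranded messenger RNA kit, per the labels' protocols. The authors deposited FPKM values for each gene in each library. The submitters' processing notes name the hg19 build and the tools STAR 2.5.0, Cufflinks, and Cuffdiff 2.2.1, with no settings. Use of strand in counting, and any further scaling between libraries, are not stated there. FPKM depends on library totals, so genes that take a large share lower the rest.

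Symbols came from a table of gene names, which matched 19310 of 19869 entries. Entries that shared a symbol were summed, and 4 short noncoding RNAs were left out. Differences are of log2(FPKM + 1), a pseudocount of 1, which understates changes of weak genes, over genes whose mean reached 1 FPKM. As each group had 1 library, no difference was tested for significance: size rules of 2-fold and 1.5-fold were used, without p-values or SDs. The listed genes, other gene lists and rules were chosen with earlier results of these data known. All listed genes could be named. Of each other list, up to 3 genes with the largest absolute difference per comparison with the control could be named. Other genes were named after their values were seen.

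Fragments were estimated from genes with 1 transcript of at least 1000 bases, keeping values within 25% of 1 fragment, which left 63 genes for the HKR3 library, 72 for the library labelled siTERT and 65 for the control. Lengths, GC content and shared sequence in units of 31 bases came from GENCODE 29 transcripts, a newer build than hg19. Gene fragments used the shortest coding transcript. If FPKM was scaled further between libraries, these estimates are scaled sizes, not read depths. Trends were removed by least squares. The calculation of the size rule was checked on simulated data. Python 3.11.15, pandas 2.3.3, numpy 2.4.6 and SciPy 1.17.1 were used.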

Additional observations from a re-analysis of the deposited data

How the results depend on the processing

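With 1 library per group, no replicate could be left out, and no paired analysis was possible because each group holds a single library. The count of 0 genes past 2-fold held in all 3 comparisons under the other pseudocounts, filters and scalings, with trends removed and without genes of shared sequence, and with a size rule of 1.5-fold, added after seeing the data, it was 4 for HKR3 against the control and 2 for HKR3 against the library labelled siTERT. The medians are close to 0, so their sign is not stable. For HKR3 against the control, -0.032 became 0.12 after scaling to the same sum and 0.032 with the trends removed, an alternative added later. For the library labelled siTERT, -0.028 became 0.013 after scaling to the same sum and 0.0019 after scaling by the upper quartile. For HKR3 against the library labelled siTERT, -0.033 became 0.079 after scaling to the same sum, 0.10 without the 3 genes of shared sequence and 0.030 with the trends removed. Counts of genes above 0 stayed within 1.5 times under all alternatives, but scaling to the same sum raised them to a majority of the 39. For HKR3 against the control 18 became 26, where the share of all genes became 58.9%. For the library labelled siTERT 17 became 24, where that share became 55.8%. For HKR3 against the library labelled siTERT 19 became 25, where it became 58.0%. Gene by gene, 17 of 39 stayed above 0 and 11 below 0 in the HKR3 library under all 8 other pseudocounts, filters, scalings and trends. These counts were made for the listed genes only, so no share of all genes can be set beside them. Estimated fragments in the control were fewest for WDR75, UTP15 and POLR1C, at 99, 211 and 297 over the shortest coding transcript. For WDR75 that transcript has 270 bases, against 2701 for the longest, so its wide interval depends on the length used.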

Other observations

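Factors of the late precursor 40S particle, grouped after their values were seen and so given with no test, are listed here for the HKR3 library. Of NOB1, PNO1, TSR1, LTV1, BYSL, RIOK1, RIOK2 and RIOK3, 7 of 8 lay above 0, where 48.6% of all genes did, with a median of 0.58, which was 0.41 with the trends removed. PNO1, the RNA-binding partner of NOB1, was at 55.5 FPKM in the HKR3 library, 36.6 FPKM in the library labelled siTERT and 38.6 FPKM in the control. RIOK2, a kinase of the same particle, was at 20.1, 12.2 and 12.5 FPKM in that order. Among these 8, TSR1 was the exception, at -0.10, and it turned to 0.05 after scaling to the same sum. The count depends on which genes were picked. Of the 46 other small subunit genes measured, 29 lay above 0 in the HKR3 library and 30 in that labelled siTERT. TSR3, at -0.55, and EMG1, at -0.50, were among those below 0 in the HKR3 library.

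The UtpA and UtpB complexes of the processome, also grouped afterwards, differed in the HKR3 library. Of 6 UtpA genes, 5 lay above 0 as deposited and 4 with the trends removed, where 48.6% and 46.0% of all genes did. NOL11, a further UtpA subunit, was at 79.0 FPKM in the HKR3 library, 62.1 FPKM in the library labelled siTERT and 58.8 FPKM in the control. HEATR1, the largest UtpA subunit, was the exception, at 11.5, 15.1 and 16.2 FPKM. Of 5 measured UtpB genes, UTP18, TBL3, WDR3, WDR36 and UTP6, 1 lay above 0, with a median of -0.17. After scaling to the same sum 2 did, where 58.9% of all genes did.

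Chromosomes 16 and 2 were singled out with earlier results of these data known, and no other chromosome was summarised. UTP4, NIP7 and NOB1 all lie on chromosome 16 and were all higher in the HKR3 library, at 0.25, 0.64 and 0.69. The 519 expressed genes of that chromosome had a median of -0.10. The 8 listed genes on chromosome 2 had a median of -0.03, with 3 above 0, or 37.5% against 49.2% of the 720 expressed genes there. The 12 listed genes annotated as hosts of noncoding RNAs had a median of 0.06, against -0.03 for the other 27, and with the trends removed 0.23 against -0.07. They ran from -0.38 for GNL3 to 0.54 for NOP58.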
